A study of Homo sapiens with 5 samples.

Results

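The genes examined were 10 protein-coding genes at loci that genome-wide association studies have tied to breast cancer risk: ABHD8, ANKLE1, BABAM1, ZNF404, FGFR2, TOX3, MAP3K1, TERT, LSP1 and RAD51B. They were chosen by name, 10 of the 20033 protein-coding genes annotated on the chromosomes covered. No measured value served as a criterion, but earlier results of these data were known when they were chosen. ABHD8, ANKLE1 and BABAM1 lie side by side on chromosome 19 and were treated as 1 locus, 19p13.11, which gave 8 loci in all. For each gene, the accessible regions within 1000 bp of any annotated transcription start site, inside the gene, and within 100 kb of it were collected, with their position, width and score.

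The data came from ATAC-seq, in which a transposase inserts sequencing adapters into open chromatin, in MCF10A cells, an immortalized but non-tumorigenic human mammary epithelial line. Their growth medium contained insulin (10 µg/ml), cholera toxin (100 ng/ml), hydrocortisone (0.5 µg/ml), EGF (20 ng/ml) and 5% horse serum, and no other cell line or treatment was compared. Reads of 5 replicates were pooled before a single list of accessible regions, called hotspots, was made, so no value below has a replicate error, no test between samples was possible, and the read depth is unknown. The results describe 1 line in 1 medium.

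Most common variants that alter cancer risk lie outside coding sequence, and many of them fall in promoters or enhancers, where a changed base can alter how well a transcription factor binds. Nucleosome-free DNA marks such elements, and the elements in use differ from one cell type to another. The genes here have different roles. BABAM1 is a subunit of the BRCA1-A complex, which brings BRCA1 to DNA breaks, and RAD51B acts in DNA repair by homologous recombination. ANKLE1 is a LEM-domain endonuclease, ABHD8 an alpha/beta hydrolase fold protein, and ZNF404 a zinc finger protein. FGFR2 is a receptor for fibroblast growth factors, MAP3K1 a kinase at the head of MAP kinase cascades, TERT the catalytic subunit of telomerase, TOX3 a chromatin protein with an HMG box, and LSP1 an actin-binding protein best known from leukocytes.

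The list held 181723 hotspots with a median score of 5.81, a range of 4.36 to 912.3 and a median width of 287 bp. Of them, 13.6% lay within 1000 bp of a start site of a protein-coding gene, and these scored higher than the rest (median 9.37 against 5.62). A score at the 90th percentile was 16.1. All 4 epithelial marker genes (CDH1, EPCAM, KRT8 and KRT18) and 4 of 6 basal mammary markers (KRT5, KRT17, EGFR and ITGA6) had a hotspot at a start site, while KRT14 and TP63 had none. Over all protein-coding genes, 77.2% had one. The immune markers PTPRC and CD3E had none, and hepatocyte and neuronal markers had weak ones only, in ALB (8.67) and NEUROD1 (4.47) but not in APOB or DCX.

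The sequences just before the start sites are shown first, because the genes differed in whether this stretch was open, which here means that it overlapped a hotspot. Each stretch ends at the base before the RefSeq start on GRCh38.p14, except for BABAM1, where it stops before the first annotated exon. Matches to the motifs searched are in capitals: the SP/KLF motif CCCCGCCC, the E-box CACGTG, the NFY motif AGCCAAT and the TEAD motif GGAATGT, each on both strands. For FGFR2, which has 5 RefSeq starts in the table used, the stretch is that before the canonical start. The printed stretches of ABHD8, BABAM1 and FGFR2 lay wholly within a hotspot, whereas those of TERT and ZNF404 shared no base with one. The stretches before the other 4 FGFR2 starts and before both RefSeq starts of RAD51B shared no base with a hotspot either. Both of these RAD51B starts (chr14:67823541 and chr14:67823592) lie downstream of its canonical start (chr14:67819779), which was inside a hotspot.
ABHD8 (chr19:17303426-17303675, minus strand): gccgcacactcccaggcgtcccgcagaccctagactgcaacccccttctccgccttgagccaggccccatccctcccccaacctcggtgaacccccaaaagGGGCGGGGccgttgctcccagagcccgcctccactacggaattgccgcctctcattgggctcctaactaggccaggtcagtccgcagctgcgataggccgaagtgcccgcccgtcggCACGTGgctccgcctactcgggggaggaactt
BABAM1 (chr19:17267193-17267372, plus strand): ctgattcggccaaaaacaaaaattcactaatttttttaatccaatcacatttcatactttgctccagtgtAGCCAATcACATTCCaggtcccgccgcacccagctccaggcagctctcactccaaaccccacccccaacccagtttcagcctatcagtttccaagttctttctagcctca
FGFR2 (chr10:121598445-121598694, minus strand): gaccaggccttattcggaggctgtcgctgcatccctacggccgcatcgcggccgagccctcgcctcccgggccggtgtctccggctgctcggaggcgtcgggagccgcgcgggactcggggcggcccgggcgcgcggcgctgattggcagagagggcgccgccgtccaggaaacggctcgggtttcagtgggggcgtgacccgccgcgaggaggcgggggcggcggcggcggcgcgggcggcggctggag
TERT (chr5:1295069-1295318, minus strand): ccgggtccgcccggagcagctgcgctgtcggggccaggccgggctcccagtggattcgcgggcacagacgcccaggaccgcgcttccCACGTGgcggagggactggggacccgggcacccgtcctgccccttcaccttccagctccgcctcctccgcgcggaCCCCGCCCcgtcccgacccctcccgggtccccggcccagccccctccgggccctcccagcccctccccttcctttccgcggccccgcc
ZNF404 (chr19:43883965-43884214, minus strand): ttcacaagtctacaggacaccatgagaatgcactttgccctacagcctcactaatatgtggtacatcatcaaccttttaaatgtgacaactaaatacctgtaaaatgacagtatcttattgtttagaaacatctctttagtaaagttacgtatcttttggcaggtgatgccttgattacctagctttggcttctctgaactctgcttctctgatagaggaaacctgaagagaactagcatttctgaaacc

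Counted over the 300 bases around the start (250 before and 50 after), FGFR2 had 52 CpG dinucleotides at its canonical start and 5 to 8 at the others, TERT 36, ANKLE1 27, ABHD8 26, BABAM1 12, and ZNF404 and both RAD51B starts 2. The canonical RAD51B start was not among those counted. Among 21613 RefSeq promoters, 85.3% of the fifth richest in CpG overlapped a hotspot, against 13.4% of the fifth poorest. Of the 1930 promoters within 2 CpG of TERT's count, 85.4% overlapped a hotspot, and TERT's did not. ANKLE1's stretch did not overlap one either, although 83.4% of the 2716 promoters of like CpG count did, and the 12 CpG of BABAM1 went with a hotspot where 47.8% of 1651 like promoters had one. ZNF404's stretch, without a hotspot, was among 3875 promoters of like count, of which 12.6% were open. SP/KLF matches occurred in 29.9% of all promoters, E-boxes in 8.35%, NFY matches in 8.18% and TEAD matches in 2.67%, over the same 300 bases.

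A hotspot lay within 1000 bp of at least 1 annotated start site of 9 of the 10 genes, the exception being TOX3. Over all 20033 genes, 77.2% had one, so the share among the risk genes was near the background. The count fell to 7 of 10 when only start sites of protein-coding transcripts were used (background 74.9%), since ZNF404 and TERT met the rule only through non-coding transcripts. It fell to 6 of 10 at the canonical start site, the start of the transcript chosen by Ensembl to represent the gene (background 70.3%), since LSP1 was then lost as well. ABHD8, ANKLE1, BABAM1, FGFR2, MAP3K1 and RAD51B had a hotspot at their canonical start.

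The strength of these promoter hotspots ranged widely. MAP3K1 had the highest score, 38.7, at the 89.0th percentile of the genes with a promoter hotspot, and ABHD8 followed with 32.91 and FGFR2 with 26.93. BABAM1 (21.33) and ZNF404 (19.52) lay on either side of the median of all such genes, 20.4. TERT (9.94), LSP1 (9.75), ANKLE1 (8.67) and RAD51B (6.74) were lowest, between the 14.4th and the 23.3rd percentile. With no replicate error, it cannot be said which neighbours in this order differ beyond their spread.

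**Figure D1:**
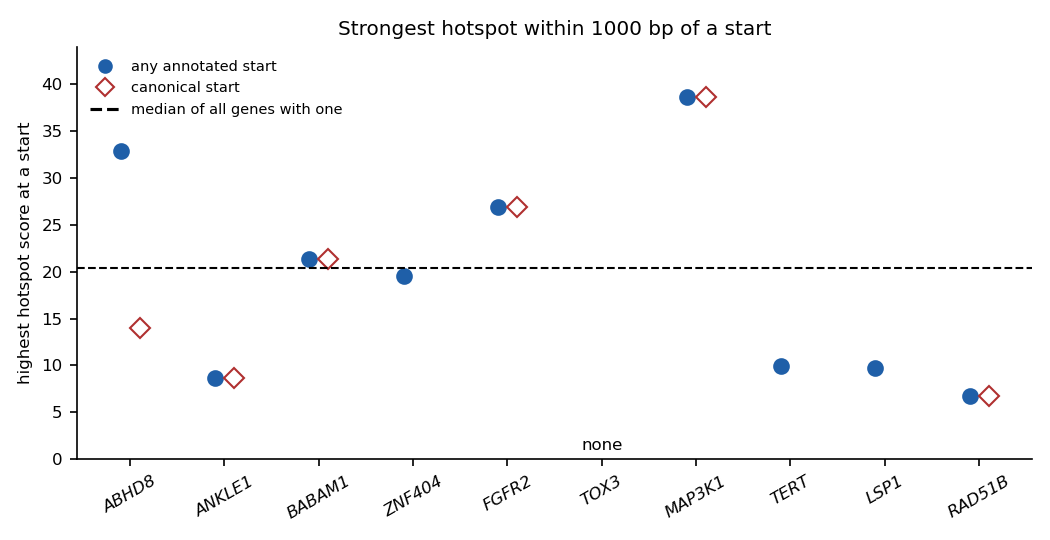
Highest hotspot score (y axis, score as deposited) within 1000 bp of any annotated start (filled circles) or of the canonical start (open diamonds) for each of the 10 genes, with the median over all genes that had a promoter hotspot, 20.4, as a dashed line. MAP3K1, ABHD8, FGFR2 and BABAM1 lay above the line, ABHD8 only through an alternative start, and TOX3 had no such hotspot.

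Around the genes, within 100 kb, lay 252 hotspots with a median score of 5.91, close to that of the whole list, and 96 of them were inside a risk gene. A hotspot was found inside 9 of the 10 genes (background 87.0%), again with TOX3 as the exception. Of the 252, 50.4% scored above the median of all hotspots and 12.3% above the 90th percentile, and none exceeded the 99th. Hotspot density relative to the chromosome was highest around LSP1, at 149.2 per Mb against 64.6 on chromosome 11. It was also above that of the chromosome around TERT (124.0 against 72.1), RAD51B (80.2 against 57.6) and ZNF404 (135.4 against 108.8). The 19p13.11 locus (107.1 against 108.8), FGFR2 (65.6 against 69.0) and MAP3K1 (57.0 against 72.1) were below it, and TOX3 was far below (9.63 against 71.6). In 11 of the 30 hotspots around TERT, 30% or more of the 12-base words occurred more than once. Without these, 19 were left. The density of chromosome 5, in which such hotspots are still counted, would give 17.4.

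**Figure D2:**
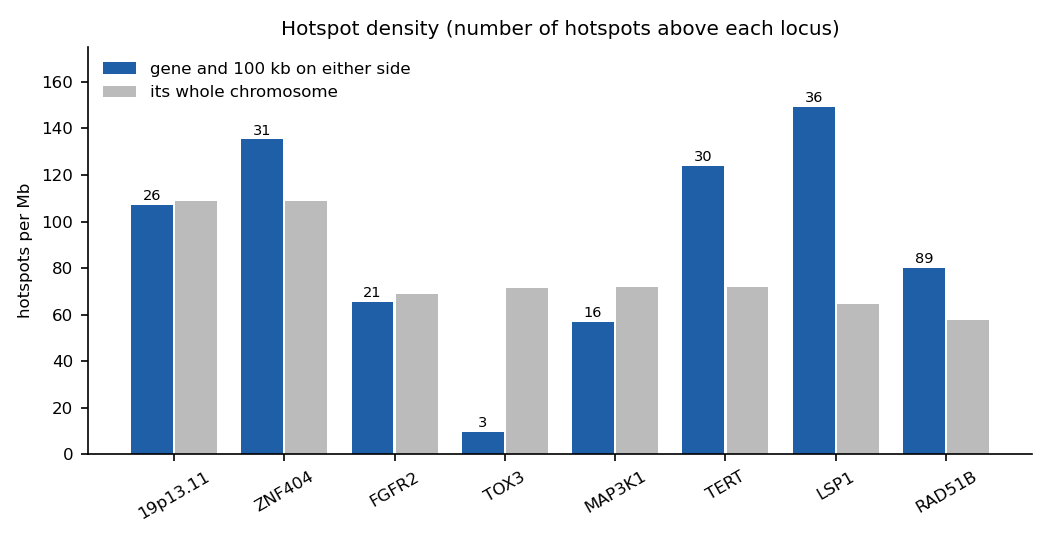
Hotspots per Mb (y axis) in each gene and its 100 kb flanks (dark bars, number of hotspots above) beside the density over its whole chromosome (grey bars). The 3 hotspots around TOX3 gave 9.63 per Mb, and LSP1, TERT, RAD51B and ZNF404 exceeded their chromosomes. Hotspots in repeated sequence are counted, 11 of the 30 around TERT.

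The map of the 8 loci sets out where these regions lay relative to each canonical start.

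**Figure D3:**
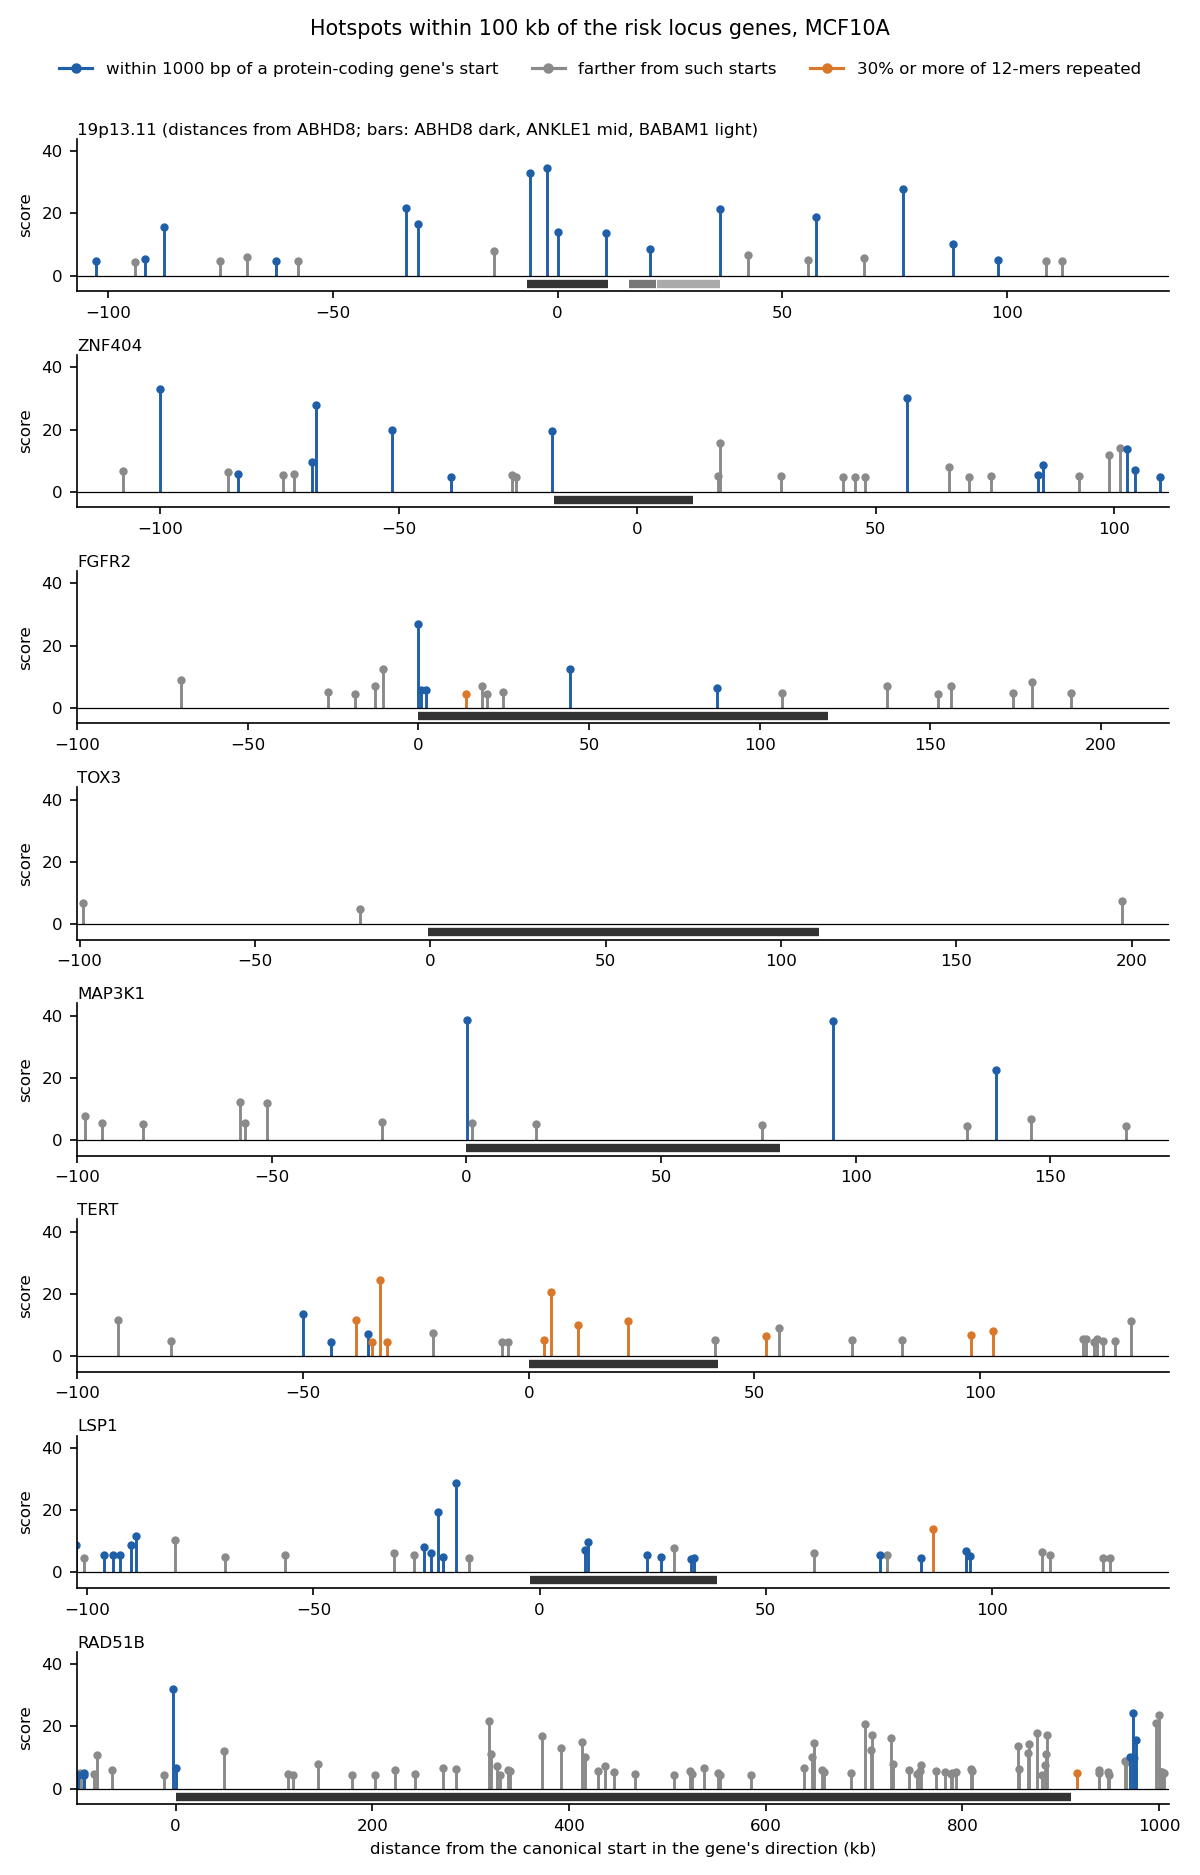
Position of each hotspot (x axis, kb from the canonical start in the direction of transcription) and its score (y axis) at the 8 loci, with the genes as horizontal bars. Colours mark hotspots within 1000 bp of a start of any protein-coding gene, those farther away, and those in which 30% or more of the 12-base words occur more than once (the last takes precedence), of which 11 of 14 lay around TERT.

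At 19p13.11 the accessible regions were mostly promoters. The region spanned chr19:17167376-17410236 (hg38) and held 26 hotspots, 16 of them (61.5%) at a start site of a protein-coding gene, against 13.6% of all hotspots. Of the 18 protein-coding genes with a start in the region, 17 had a promoter hotspot, against 77.2% of all genes. The highest score, 34.53, belonged to chr19:17305214-17306427 at the start of MRPL34, a mitochondrial ribosomal protein gene that runs the opposite way to ABHD8. It was followed by 32.91 at chr19:17309043-17309870, which covered the start of DDA1 and also an alternative start of ABHD8. All 4 promoter hotspots of the 3 risk genes also lay within 1000 bp of a start of another gene.

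ABHD8 therefore reached its score of 32.91 only together with DDA1. At the canonical ABHD8 start the hotspot chr19:17303035-17303739 scored 14.03, and it held the SP/KLF and E-box matches of the sequence printed above. A further hotspot of 866 bp, chr19:17292202-17293067, scored 13.58 (87.1th percentile of all hotspots) at the other end of the gene, in exon 5. It shared 462 bases with the 3′ UTR of ABHD8, and an alternative transcript of MRPL34 started there. The study predicted, with a weight matrix from cultured human mammary epithelial cells, that a risk variant in this UTR affects CTCF binding. It also reported that this variant is associated with ANKLE1 expression in breast tumors and in breast tissue. The hotspot held 1 TEAD match and 2 SP/KLF matches, and the CTCF motif searched was not found in its letters. A fixed motif searched in MCF10A hotspots differs from the study's matrix in cells and method. Whether that variant lies within the hotspot was not determined here.

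ANKLE1 had a single hotspot, chr19:17282518-17283045, with a score of 8.67 and no motif match. It began 617 bp downstream of the canonical start, had its centre in intron 3, and was shared with an alternative start of USHBP1. For 31.8% of all genes the nearest hotspot was at least as far from the canonical start. BABAM1 likewise had 1 hotspot, chr19:17266927-17267604, but it covered the start and scored 21.33. Besides the NFY and TEAD matches printed above it held an ETS motif (CCGGAAGT) and a YY1 motif (AAGATGGC). It also covered the start of a transcript annotated under a separate gene identifier.

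Related genes also had hotspots at annotated starts. All 7 genes of the BRCA1-A list (BRCA1, BARD1, ABRAXAS1, UIMC1, BRCC3, BABAM1 and BABAM2) had a promoter hotspot at the canonical start, with a median score of 24.41. BARD1 (46.6) and ABRAXAS1 (31.56) scored highest and BABAM1 lowest. The 7 LEM-domain genes had a hotspot at some annotated start, 6 of them at the canonical one and LEMD1 (20.66) only at an alternative one, with a median of 24.9, led by LEMD3 (31.93) and LEMD2 (27.86), and ANKLE1 had the lowest score of the 7. As 77.2% of all genes had a hotspot at some annotated start and 70.3% at the canonical one, these counts were described without a test.

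ZNF404 had no hotspot at its canonical start but had one 17.8 kb upstream of it. The hotspot chr19:43901282-43902218, 937 bp wide with a score of 19.52, lay at the first base of a longer ZNF404 transcript with no defined coding sequence. The nearest hotspot to the canonical start was 16.7 kb away, a distance reached or passed by 6.70% of genes. Inside the gene no other hotspot was found. The flanks held 18 hotspots away from any start of a protein-coding gene among 31 in all. The neighbouring zinc finger genes were open at their canonical starts, ZNF155 with a score of 33.16, ZNF283 with 30.0, ZNF221 with 27.8 and ZNF45 with 19.9. All 7 protein-coding genes with a start in the region had a promoter hotspot, as did 77.2% of all genes.

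KCNN4, which encodes a calcium-activated potassium channel, lay at the far end of the region. For a risk variant on its 5′ side, the study predicted stronger RUNX binding, with a weight matrix from variant human mammary epithelial cells. It also reported that this variant is associated with ZNF404 expression in breast tumors and in breast tissue. The canonical start of KCNN4 lay in chr19:43780733-43781577, with a score of 13.76, which reached 604 bp upstream. A hotspot of nearly equal score, 14.08, began 1239 bp upstream of that start and ended 2246 bp upstream (chr19:43782212-43783219), with 1 TEAD match and no match to the RUNX motif TGTGGTT. Farther out, chr19:43784471-43785673, with a score of 11.82, began 3498 bp upstream and held 2 AP-1 matches (TGAGTCA on either strand). Whether the variant lies in one of them was not determined here, and the study's prediction came from other cells and another kind of search. The stretch with the AP-1 matches is printed from the hg38 genome, with the matches in capitals.
Between KCNN4 and LYPD5 (chr19:43784537-43784736, plus strand): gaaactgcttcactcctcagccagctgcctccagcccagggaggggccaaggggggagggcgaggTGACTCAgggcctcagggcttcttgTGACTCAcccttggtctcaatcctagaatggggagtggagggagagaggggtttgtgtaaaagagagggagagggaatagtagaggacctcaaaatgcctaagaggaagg

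FGFR2 was open at its canonical start, where chr10:121598252-121598815 scored 26.93. Of its 10 internal hotspots, 5 were within 1000 bp of one of its 36 annotated starts. The strongest of these after the canonical one was chr10:121553793-121554277 in intron 4, with a score of 12.38 and 1 TEAD match. The pair in intron 1, chr10:121597666-121598008 and chr10:121596182-121596520, scored 5.69 and 5.79, and 6.36 was the score at chr10:121510757-121511027 in intron 9.

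Intron 2 of FGFR2, the part of the gene best known for breast cancer risk variants, held 4 hotspots, all away from annotated starts. They scored 5.03, 4.48, 7.12 and 4.50, and the median of the whole list was 5.81. In the last, chr10:121584454-121584751, 78.75% of the 12-base words occurred more than once. Upstream, chr10:121608607-121608971, 10.3 kb from the start, scored 12.36, and no other protein-coding gene had a start within 100 kb.

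Of the FGF receptor genes, FGFR2 had the strongest promoter hotspot. FGFR1 scored 15.25 (7.51 at the canonical start), FGFRL1 13.71 and FGFR4 8.99, and FGFR3 had no promoter hotspot, although 1 hotspot lay inside it.

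TOX3 stood at the other extreme. No hotspot lay within 1000 bp of any of its 5 annotated starts or anywhere in the 111.4 kb of the gene. Of the 3667 protein-coding genes of 100 kb or more, 19 (0.518%) had no hotspot inside, and the median number in such genes was 11. Within 100 kb there were 3 hotspots, where the density of chromosome 16 would give 22.3. They scored 7.49 (chr16:52349681-52349908), 4.86 (chr16:52567109-52567373) and 6.68 (chr16:52646005-52646218), and none held a motif match. The closest to the canonical start was 20.0 kb upstream, and 5.53% of genes had none nearer. By hotspots per Mb, TOX3 ranked at the 1.12th percentile of all genes. Of its family, TOX4 (37.2) and TOX2 (7.41) had a promoter hotspot and TOX had none, but 13 hotspots lay inside TOX and 34 inside TOX2.

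A locus that a line has lost can give no hotspot, and copy number was not measured here. Over all genes, 77.2% had a promoter hotspot, with a median highest score of 20.4. Among 22 other genes at or near breast cancer risk variants, 20 had a promoter hotspot (median score 19.29), with SLC4A7 (52.24) and RALY (51.36) highest. The exceptions were CDKN2A and CDKN2B, neighbouring cell cycle inhibitor genes on chromosome 9, which also had 0 hotspots within 100 kb, as did 115 of all genes (0.574%). MCF10A is known to have lost this region. The 3 hotspots around TOX3 all lay outside the gene, and whether any of its locus was lost was not tested.

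MAP3K1 had the strongest promoter of the 10 genes. The hotspot chr5:56814834-56816397 was 1564 bp wide, scored 38.7 (98.5th percentile of all hotspots) and held 2 SP/KLF matches and 1 TEAD match. The 3 further hotspots inside the gene all scored below the list's median, 5.61 and 5.24 in intron 1 and 4.81 in intron 19. Upstream, a pair of hotspots stood out at 58.3 kb (chr5:56757118-56757402, score 12.38) and 51.3 kb (chr5:56763928-56764478, score 12) from the start. The farther one held a RUNX match, in capitals in the stretch below.
Upstream of MAP3K1 (chr5:56757161-56757360, plus strand): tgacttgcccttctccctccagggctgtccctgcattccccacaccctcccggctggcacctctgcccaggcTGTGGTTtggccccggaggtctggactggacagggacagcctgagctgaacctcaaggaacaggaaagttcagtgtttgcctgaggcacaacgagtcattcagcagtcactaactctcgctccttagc

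The 2 neighbours of MAP3K1 were also open at their starts, SETD9 with a score of 38.32 and MIER3 with 22.53. All 9 genes of the MAP kinase list, from MAP3K1 down to MAPK9, had a promoter hotspot at the canonical start, with a median score of 28.92. Of all genes, 70.3% had one there. MAPK8 (45.28) scored above MAP3K1, and MAPK3 (16.29) lowest.

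TERT had no hotspot at its canonical start. That start, in a stretch with 36 CpG and with the E-box and SP/KLF matches printed above, lay 3.33 kb from the nearest hotspot, which was inside the gene and scored 5.34. A distance as great was found for 21.4% of genes. On the upstream side the nearest hotspots scored 4.66 (chr5:1299520-1299806) and 4.69 (chr5:1300871-1301138), near the lowest score of the list. All 11 other genes of the telomerase and shelterin list were open at their canonical starts, as were 70.3% of all genes. POT1 and TERF1 scored highest (42.08 each), NHP2 had 41.93, and NOP10 (9.31) was the only one of the list below TERT's 9.94.

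The hotspots inside TERT lay almost wholly in tandemly repeated sequence. Of the 5, 4 were in introns 2 and 6 and had 65.5% to 93.0% of their 12-base words more than once, against a median of 0% over all hotspots. The strongest, chr5:1288958-1291238 in intron 2, was 2281 bp wide, scored 20.53 and had 86.1% of its words repeated with a period of 42 bp. It held 40 E-box matches. The hotspot through which TERT met the promoter rule, chr5:1283967-1284424 near the start of a retained-intron transcript, scored 9.94 and had 88.6% of its words repeated with a period of 121 bp. The fifth, chr5:1253691-1254019, had no repeated words and scored 5.11. Around TERT, 11 of 30 hotspots had 30% or more of their words repeated, compared with 3 of 222 at the other loci and 3.20% of all hotspots.

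The strongest hotspot of the TERT region was of the same kind. It lay at chr5:1327159-1328697, 723 bp from an alternative start of CLPTM1L, scored 24.47, had 92.0% of its words repeated with a period of 29 bp, and held 31 TEAD matches. At the canonical CLPTM1L start the score was 13.64, with no repeated words. In reference sequence with many copies of a unit, the number of copies can differ from that of the cells, and reads are hard to place. The part of this in the scores was not tested. Without hotspots of this kind, 1 was left inside TERT, 19 within 100 kb and none at its starts, and 8 of the 10 genes then had a promoter hotspot (background 77.0%). Stretches of 4 units of the TERT repeat and of several units of the CLPTM1L repeat are printed from hg38, with the E-box and TEAD matches in capitals.
TERT intron 2 (chr5:1289276-1289443, plus strand): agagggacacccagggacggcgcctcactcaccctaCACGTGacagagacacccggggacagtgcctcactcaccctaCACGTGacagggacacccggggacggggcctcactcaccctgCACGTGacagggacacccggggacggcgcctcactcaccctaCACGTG
CLPTM1L (chr5:1327876-1328043, plus strand): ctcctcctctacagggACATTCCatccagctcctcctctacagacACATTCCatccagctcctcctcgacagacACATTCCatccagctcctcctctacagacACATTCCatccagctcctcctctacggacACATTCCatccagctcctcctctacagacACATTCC

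**Figure D4:**
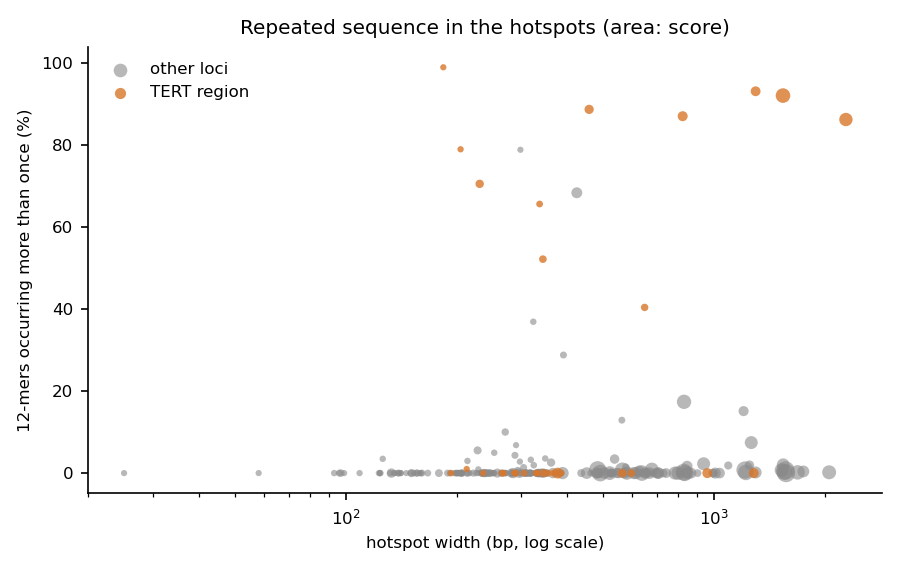
Share of 12-base words that occur more than once in a hotspot (y axis, %) against its width (x axis, bp, log scale) for the 252 hotspots at the risk loci, with area in proportion to score and the TERT region in orange. The TERT region held 11 of the 14 hotspots at or above 30%, among them the widest of all, with 2281 bp.

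LSP1 had many hotspots around it, with a median score of 5.65 against 5.81 for the whole list. There were 36 within 100 kb, 21 of them at a start of a protein-coding gene, and its density per Mb ranked at the 89.1th percentile of all genes. No hotspot lay within 1000 bp of the canonical start, and the nearest, 9.87 kb downstream, left LSP1 among the 11.0% of genes with at least that distance. Instead, 6 of the 7 hotspots inside the gene were near alternative starts among its 17 annotated ones. The pair in intron 1, chr11:1862955-1863286 (score 7.13) and chr11:1863552-1863895 (score 9.75), each held an AP-1 match, the first with a TEAD match and the second with a CTCF match. The others scored 4.43 to 7.74. SYT8, a synaptotagmin gene upstream, had the strongest promoter hotspot of the region, with 28.72 at chr11:1833854-1835404. TNNI2 and PRR33 had none. The stretch of the stronger intron 1 hotspot with its AP-1 and CTCF matches in capitals reads as follows.
LSP1 intron 1 (chr11:1863653-1863852, plus strand): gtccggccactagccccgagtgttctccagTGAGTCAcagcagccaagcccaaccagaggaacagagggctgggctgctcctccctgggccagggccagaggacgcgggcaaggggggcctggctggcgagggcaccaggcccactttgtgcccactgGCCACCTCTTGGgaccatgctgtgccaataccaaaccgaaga

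RAD51B differed from the other genes by its length. The gene spans 910.4 kb and held 63 of the 96 hotspots found inside the 10 genes. Its own promoter hotspot was narrow and weak, chr14:67819659-67819892, 234 bp wide with a score of 6.74, the lowest of the 9 genes with one. On the upstream side, 3.18 kb from the RAD51B start, the hotspot at the start of ZFYVE26 scored 31.93.

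Inside RAD51B the hotspots were uneven. Intron 7, 404.7 kb long, held 23 hotspots, or 56.8 per Mb, close to the 57.6 per Mb of chromosome 14. The part beyond the end of the canonical transcript, 252.1 kb long, held 27, or 107.1 per Mb. Intron 8 held 7, all scoring 6.59 or less. The highest score inside the gene was 21.78, at chr14:68137695-68138215 in intron 7, which held a TEAD match. It was followed by 20.65 at chr14:68520890-68521469 and 17.72 at chr14:68695086-68695933, both beyond the canonical transcript. Of the 89 hotspots within 100 kb, 81 were away from starts of protein-coding genes. The share at such starts was 8.99%, against 13.6% in the whole list. At the 3′ side, ZFP36L1, which encodes an mRNA-binding protein, had a promoter hotspot of 24.21, and chr14:68818973-68819801, 22.7 kb from a ZFP36L1 start, scored 23.72.

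AP-1 matches were found in the central 200 bp of 12 of the 89 hotspots around RAD51B. Of all hotspots, 8.66% had one there, and 9.23% of those away from start sites of protein-coding genes. The hotspot with a score of 20.65 held 1 AP-1 and 1 TEAD match, and the one with 17.72 held 2 AP-1 matches, an NFY match and a match to the glucocorticoid response element. The stretch of the former with both matches in capitals is printed here.
RAD51B, beyond the canonical transcript (chr14:68521008-68521207, plus strand): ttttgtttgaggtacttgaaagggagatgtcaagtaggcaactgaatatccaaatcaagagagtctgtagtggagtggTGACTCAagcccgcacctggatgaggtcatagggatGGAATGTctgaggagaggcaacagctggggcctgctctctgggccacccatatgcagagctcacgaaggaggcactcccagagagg

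Over the 252 hotspots together, the counting interval of most motifs held the share of the whole list, though many rested on few windows or on none. AP-1 matches lay in the central 200 bp of 25 (9.92%, 95% Wilson interval 6.81% to 14.2%), against 8.66% of all hotspots. Inside the genes it was 13 of 96 (13.5%, interval 8.09% to 21.8%). SP/KLF matches were in 5.16% (3.04% to 8.63%) against 3.42%, TEAD matches in 4.37% (2.46% to 7.65%) against 3.07%, and E-boxes in 4.37% (2.46% to 7.65%) against 3.29%. For RUNX and CTCF the shares were 3.57% (1.89% to 6.65%) against 3.75% and 2.38% (1.10% to 5.10%) against 2.25%. Matches to the FOX motif TGTTTAC were in 0.794% (0.218% to 2.85%) against 2.68%. For 18 of the 19 motifs searched the interval held the share of all hotspots, and the exception, ZNF143, rested on 1 window. GRHL, ZBTB33, CREB, YY1 and the estrogen response element had no match in the 252. Their shares of all hotspots were 0.0264% to 0.910%. An interval from no match holds any share this low, so a shortage of these motifs could not be seen. The tally thus follows in part from how rare the motifs are, and does not show that the shares are alike. It was 19 of 19 with windows of 120 bp and 16 with windows of 300 bp, with the same limit. At 300 bp, ETS matches were in 2.38% (1.10% to 5.10%, 6 windows) against 0.600%, and SP/KLF matches in 7.54% (4.88% to 11.5%, 19 windows) against 4.70%, beside ZNF143 in 1 window. Both motifs were commoner at start sites of protein-coding genes, ETS in 2.90% of such windows against 0.238% of others and SP/KLF in 19.7% against 2.33%. Start-site hotspots made up 29.0% of the 252 and 13.6% of the whole list, and their part in these shares was not tested. The intervals cover counting error only, and hotspots of one locus are not independent. By locus, windows with an AP-1 match numbered 12 of 89 around RAD51B, 5 of 36 around LSP1 and 3 of 21 around FGFR2. They numbered 2 of 31 around ZNF404, 2 of 16 around MAP3K1, 1 of 30 around TERT, 0 of 26 at 19p13.11 and 0 of 3 around TOX3. Over the whole list, AP-1 matches were in 5.01% of windows at start sites of protein-coding genes and in 9.23% of others.

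**Figure D5:**
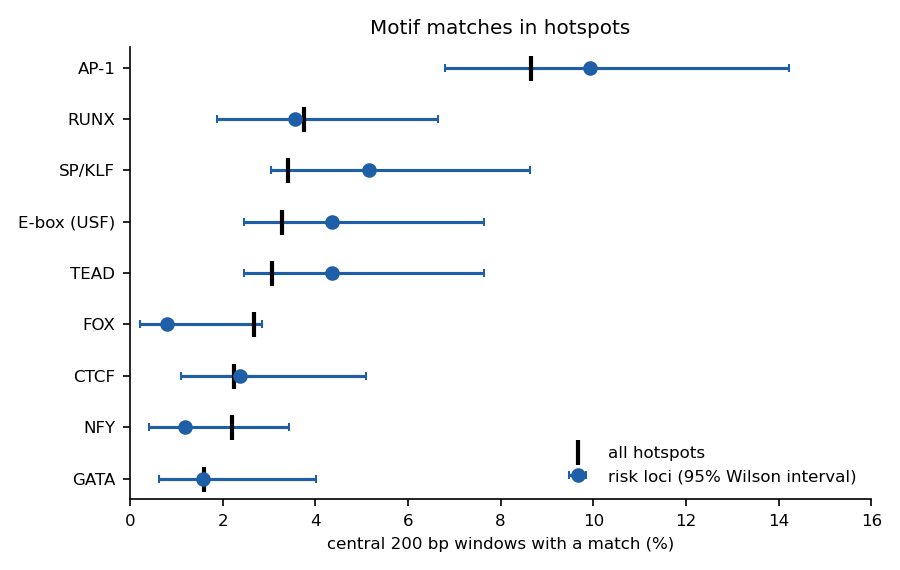
Share of central 200 bp windows with a match (x axis, %) for the 9 motifs found in 1% or more of all hotspots, in the 252 hotspots of the risk loci (circles with 95% Wilson intervals, counting error only) and in all hotspots (black bars). Each interval shown holds the share of all hotspots.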

How the data were processed

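ATAC-seq libraries of 5 MCF10A replicates were sequenced as paired reads of 75 bases. Per the study's methods, the authors aligned them to hg38 with Bowtie2, merged the replicates, removed duplicates and called hotspots with Hotspot 4.1 at a false discovery rate of 0.01, with a background window of 50 kb. The deposited file gives a position and a score per hotspot. The sources used here do not state what this value was normalized to.

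Hotspots were assigned to GENCODE 44 genes by any shared base, using every annotated start of each protein-coding gene. A word was repeated if its 12 bases occurred more than once in the hotspot. Motifs were searched on both strands. All 10 genes were named, as were neighbours that shared a promoter hotspot with one or held the strongest hotspot of a locus, KCNN4, and, of each list, the highest 2 and those with none. Other genes, hotspots and printed stretches were chosen after their values were seen, and the repeat threshold of 30% was too. The genes and lists were chosen with earlier results of these data known. Promoter sequences came from RefSeq (GRCh38.p14), and MAP3K1, TOX3 and LSP1 had no entry there. Some list genes and hotspots are not reported here. Interval lookup, motif search and the repeat measure were tested on simulated data. Python 3.11.15, numpy 2.4.6, pandas 2.3.3 and matplotlib 3.10.9 were used. Alternatives changed the distances, the overlap rule, the score threshold, the starts used and the motif window.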

Additional observations from a re-analysis of the deposited data

How the results depend on the processing

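No paired analysis was possible because the 5 replicates were pooled before calling and form 1 group, and for the same reason no replicate could be left out. The number of risk genes with a promoter hotspot stayed between 6 and 9 over the 7 alternatives. The number of hotspots inside the genes fell from 96 to 54 with scores above the median only and to 33 without RAD51B. Within 100 kb it fell from 252 to 127 and 163 under the same changes, and it was 161 within 50 kb and 460 within 250 kb. AP-1 matches fell from 9.92% to 5.95% of windows when these were 120 bp long. These changes follow from counting fewer or more bases, hotspots or genes. ABHD8's highest promoter score fell from 32.91 to 14.03 at the canonical start, and RAD51B's rose from 6.74 to 16.25 within 2000 bp of a start. The leave-out of RAD51B, the restriction to protein-coding transcripts and the removal of repeated sequence were chosen after seeing the data. Depth is unknown, so a missing hotspot cannot be told from one below the authors' threshold.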
